A study of Homo sapiens with 16 samples.

Results

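The comparison described here is the difference between the PMA responses of 2 stable THP-1 lines, one labelled shDNMT3B and one labelled shNC. For each gene it is the log2 change under PMA in shDNMT3B minus the log2 change under PMA in shNC. A positive value means that the gene rose more, or fell less, in shDNMT3B. THP-1 is an acute monocytic leukemia cell line carrying the MLL-AF9 fusion, and phorbol-12-myristate-13-acetate (PMA) drives it towards macrophages. Cells had been infected with lentivirus for a short hairpin RNA against DNMT3B, a de novo DNA methyltransferase, or for the control hairpin shNC, and were given DMSO or 100 ng/ml PMA for 48 h before mRNA sequencing. The 4 groups, each of 2 libraries, make 8 of the 16 libraries of the series, the others being lines labelled shUHRF1 and shDNMT1 with the same treatments. Each line carries 1 hairpin, so an effect of the target and an effect of that hairpin or line cannot be told apart. Of 60676 genes in the table, 16503 passed the filter on low counts and were tested.

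The 8 libraries held 13883556 to 22852559 counts, with all first replicates deeper (20851695 to 22852559) than all second replicates (13883556 to 15378974). Genes of the mitochondrial genome took 24.4% and 9.97% of counts in shNC with DMSO and 10.3% and 4.76% with PMA. In shDNMT3B they took 29% and 14.5% with DMSO and 19.5% and 9.35% with PMA. That share is therefore higher in shDNMT3B than in shNC at each replicate number, with DMSO and with PMA. Without those genes the number called was 1133 in place of the 1118 given below. CD68, a macrophage marker, was present in all 4 groups, at means of 195 to 1150 CPM. CPM here are counts scaled to a library size that was adjusted by the normalization described below. SPI1, the factor that defines the myeloid lineage, was present in all 4 groups too (135 to 408 CPM). The red cell gene HBB was at 232 CPM in the first shNC DMSO library, and it was at 0 to 0.153 CPM in the other 7. Only 3 of 16 listed red cell genes were tested, HBA2 was also at 184 CPM in that library, and none of the 3 was called, although HBA2 was with the replicate number as a block (edgeR adjusted p = 0.00301). The part of these counts in the results was not tested, but the counts without that library are given below where they matter.

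DNMT3B itself did not follow its label after PMA. In the order replicate 1, replicate 2, it was at 8.73 and 9.73 CPM in shNC with DMSO and 6.4 and 6.87 CPM in shDNMT3B with DMSO, a log2 difference of -0.48 that did not pass the test (edgeR adjusted p = 0.212). With PMA it was at 1.26 and 1.59 CPM in shNC and 2.74 and 3.19 CPM in shDNMT3B, so the targeted transcript was higher in the knockdown line (log2 1.06, edgeR adjusted p = 0.00688). Its fall under PMA was accordingly smaller in shDNMT3B (log2 -1.16) than in shNC (log2 -2.70), a difference of 1.54 ± 0.30 (SE, edgeR adjusted p = 0.00791). Every direction below is thus between libraries labelled shDNMT3B and libraries labelled shNC. With PMA that is not a comparison of a low with a normal level of the DNMT3B transcript. With DMSO both shDNMT3B values lay below both shNC values, without passing the test in the main fit. The study checked its knockdowns by western blot, with DNMT3B among the proteins blotted, and protein is not measured by these counts. Sample descriptions and titles of the series disagree for most samples. Groups were taken from the column names, which match the titles.

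PMA activates protein kinase C, and THP-1 cells exposed to it leave the cell cycle, attach and take on macrophage functions. Genes of mitosis and DNA replication are driven by E2F factors and by the MuvB complexes, and they are shut off when cells leave the cycle. Type I interferon acts through a complex that holds STAT2 and IRF9 and binds the interferon-stimulated response element. ATF4 is translated when amino acids are short or proteins misfold in the endoplasmic reticulum, and it turns on amino acid transporters, synthesis enzymes and tRNA synthetases.

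The PMA response differed between the lines labelled shDNMT3B and shNC in 1118 genes (6.77% of those tested, edgeR adjusted p under 0.05), 838 higher in shDNMT3B (5.08%) and 280 lower (1.70%). Genes of mitosis and replication fell less in shDNMT3B, genes of the type I interferon response rose more, and genes of the ATF4 response rose less or fell further. The median difference of all tested genes was 0.07 on the log2 scale. With the replicate number as a block, 3224 genes were called, 2074 higher (12.6%) and 1150 lower (6.97%), and the block counts of lists below are to be read against these shares. Without a PMA library the count was lower, at 660 and 696 without shNC PMA replicate 1 and 2 and 685 and 729 without shDNMT3B PMA replicate 1 and 2. The higher genes then numbered 518, 545, 546 and 585 in the same order, and the lower genes 142, 151, 139 and 144. Leaving out a DMSO library gave 783 to 865 genes, of which 151 were lower without shNC DMSO replicate 1 and 179 and 176 without shDNMT3B DMSO replicates 1 and 2.

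**Figure D1:**
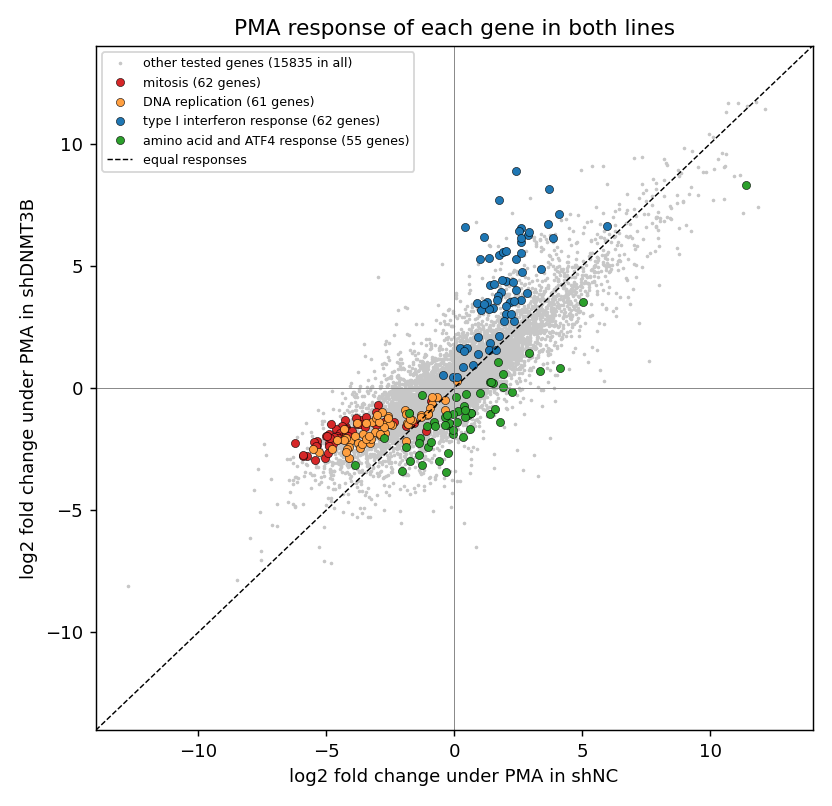
Log2 fold change under PMA in shNC (horizontal axis) and in shDNMT3B (vertical axis) for the 15835 tested genes with counts in all 4 groups. Each point is a gene and the dashed line marks equal responses. Mitosis and replication genes lie above the line at the lower left, interferon genes above it at the upper right, and ATF4 response genes mostly below it.

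Most genes of the higher class were ones that PMA turned down. Of the 838, 432 (51.6%) fell in both lines and so fell less in shDNMT3B, 166 fell in shNC and were not called in shDNMT3B, and 38 fell in shNC but rose in shDNMT3B. A further 120 rose in both lines and 82 rose in shDNMT3B without a call in shNC. Of the 280 lower genes, 147 (52.5%) rose in both lines, 65 rose in shNC and were not called in shDNMT3B, 17 rose in shNC and fell in shDNMT3B, 41 fell in shDNMT3B without a call in shNC, and 10 fell in both. The lines differed mainly after PMA. Of the 838, 588 (70.2%) were higher in shDNMT3B with PMA and not called with DMSO, while 114 were lower with DMSO and not called with PMA, and 58 were lower with DMSO and higher with PMA. Of the 280, 201 (71.8%) were lower with PMA and not called with DMSO, 33 were higher with DMSO alone, and 22 were higher with DMSO and lower with PMA. Over all tested genes, PMA raised 28.4% and lowered 26.0% in shNC, and raised 25.2% and lowered 19.7% in shDNMT3B. Between the lines, 1.62% were higher and 2.89% lower in shDNMT3B with DMSO, and 11.3% and 9.05% with PMA. With the replicate block these shares were 7.28% and 11.4% with DMSO, and 20.5% and 19.5% with PMA. Of the 2074 and 1150 genes called with the block, 965 fell in both lines and 633 rose in both, and 101 and 45 had opposite calls under PMA.

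Mitosis genes lost much less of their expression under PMA in the libraries labelled shDNMT3B. All 62 listed genes were tested, and the response was higher in 54 (87.1%, against 5.08% of all genes) and lower in 0, with a median difference of 2.40 against 0.07 for all genes. The difference was positive in 61 of the 62, called or not. The median member changed by -4.27 (log2) under PMA in shNC and by -1.87 in shDNMT3B. With DMSO the lines differed by a median of -0.39, with 0 members higher and 2 lower (1 and 28 with the block). With PMA they differed by 2.05, with 55 higher and 0 lower (57 and 1 with the block). In bulk RNA, fewer cycling cells and less of these transcripts per cell cannot be told apart.

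CDC20, which activates the anaphase-promoting complex, was at 446 and 412 CPM in shNC with DMSO and at 7.25 and 6.86 CPM with PMA. In shDNMT3B it was at 457 and 423 CPM with DMSO and 64 and 62.8 CPM with PMA. The DMSO values of the lines overlap and those with PMA lie far apart, for a difference of the responses of 3.13 ± 0.23 (SE, edgeR adjusted p = 1.1e-05). CCNB1, the cyclin partner of CDK1 at entry into mitosis, was at 169 and 165 CPM against 6.46 and 7.36 CPM in shNC, and at 102 and 109 CPM against 26.6 and 27.1 CPM in shDNMT3B, a difference of 2.62 ± 0.20 (edgeR adjusted p = 1.1e-05). The DMSO level of this cyclin was already lower in shDNMT3B, while its PMA level was higher there. KIF20A, a kinesin of the cleavage furrow, fell from 37.9 and 44.9 CPM to 0.526 and 0.577 CPM in shNC, and from 24.5 and 32.8 CPM to 6.23 and 5.74 CPM in shDNMT3B (3.96 ± 0.32, edgeR adjusted p = 2.0e-05). TTK, the MPS1 checkpoint kinase, gave 2.95 ± 0.22, and MKI67, the gene of the proliferation marker Ki-67, gave 2.19 ± 0.22. BUB3 (0.35), CENPN (0.13), INCENP (0.30) and ESPL1 (-0.67) were among the 8 members that were not called, and with the block ESPL1 was lower (edgeR adjusted p = 0.0298).

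Many mitosis genes carry the cell cycle genes homology region (CHR), read by MuvB complexes, near their start. The letters TTTGAA, sought on both strands in the 250 bases before the start of transcription, stood in 27 of the 52 mitosis promoters that the RefSeq table holds (51.9%) and in 1027 of the 11736 promoters of tested genes (8.75%). Among the called members the letters stood in 23 of 46 promoters (50%), near the share of the whole list. The 3 called members with the smallest adjusted p among those with a match in the last 150 bases are shown as examples of the motif. The windows end at the base before the start and are from RefSeq on GRCh38, 5′ to 3′ along the gene, with the matches in capitals.
CDC20 (chr1:43358831-43358980, plus strand): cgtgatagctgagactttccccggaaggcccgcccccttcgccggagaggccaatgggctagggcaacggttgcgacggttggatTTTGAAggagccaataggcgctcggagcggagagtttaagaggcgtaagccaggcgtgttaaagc
BUB1B (chr15:40160919-40161068, plus strand): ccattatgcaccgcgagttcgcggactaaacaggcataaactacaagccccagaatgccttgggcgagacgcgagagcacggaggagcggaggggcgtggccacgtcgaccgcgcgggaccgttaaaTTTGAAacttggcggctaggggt
MKI67 (chr10:128126424-128126573, minus strand): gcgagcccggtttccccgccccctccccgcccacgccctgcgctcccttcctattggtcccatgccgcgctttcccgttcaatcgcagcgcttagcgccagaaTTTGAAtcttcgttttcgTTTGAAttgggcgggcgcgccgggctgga
In MKI67 the letters occur at 2 places. A match is a description of these bases, and binding was not measured.

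DNA replication genes moved the same way by less. Of 61 listed and tested genes, 32 were higher (52.5%) and 0 lower, with a median difference of 1.22. The median member changed by -2.93 under PMA in shNC and by -1.50 in shDNMT3B. CDC6, which loads the replicative helicase, was at 50.6 and 54.9 CPM against 3.52 and 3.61 CPM in shNC, and at 51 and 51.7 CPM against 13.3 and 12.8 CPM in shDNMT3B (1.91 ± 0.21, SE, edgeR adjusted p = 1.7e-04). The DMSO values of the lines overlap and the PMA values do not. TYMS, thymidylate synthase, differed most among those named here (3.02 ± 0.42), and RRM2, the small subunit of ribonucleotide reductase, gave 2.01 ± 0.22. The origin recognition and clamp loader genes ORC4 (0.18), ORC5 (-0.03) and RFC1 (0.22), were not called.

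UHRF1, which brings DNMT1 to newly made DNA and is expressed with the S phase genes, followed the same course. It was at 87.1 and 123 CPM in shNC with DMSO and 4.62 and 7.43 CPM with PMA, and at 66.2 and 94.9 CPM against 26.2 and 34 CPM in shDNMT3B (2.71 ± 0.38, edgeR adjusted p = 9.4e-04). Of the 26 genes of the DNA methylation machinery, 4 were higher (15.4%) and 0 lower, with a median of -0.00. The others were HELLS, a chromatin remodeller (2.78 ± 0.31), its partner CDCA7 (3.49 ± 0.43), and DNMT3B. DNMT1 (0.74 ± 0.42, edgeR adjusted p = 0.381) was not called, but it was with the replicate block (0.72, edgeR adjusted p = 0.00311). DNMT3A (-0.01 ± 0.25) was not called in either fit. With the block 7 of the 26 were higher and 1 lower.

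**Figure D2:**
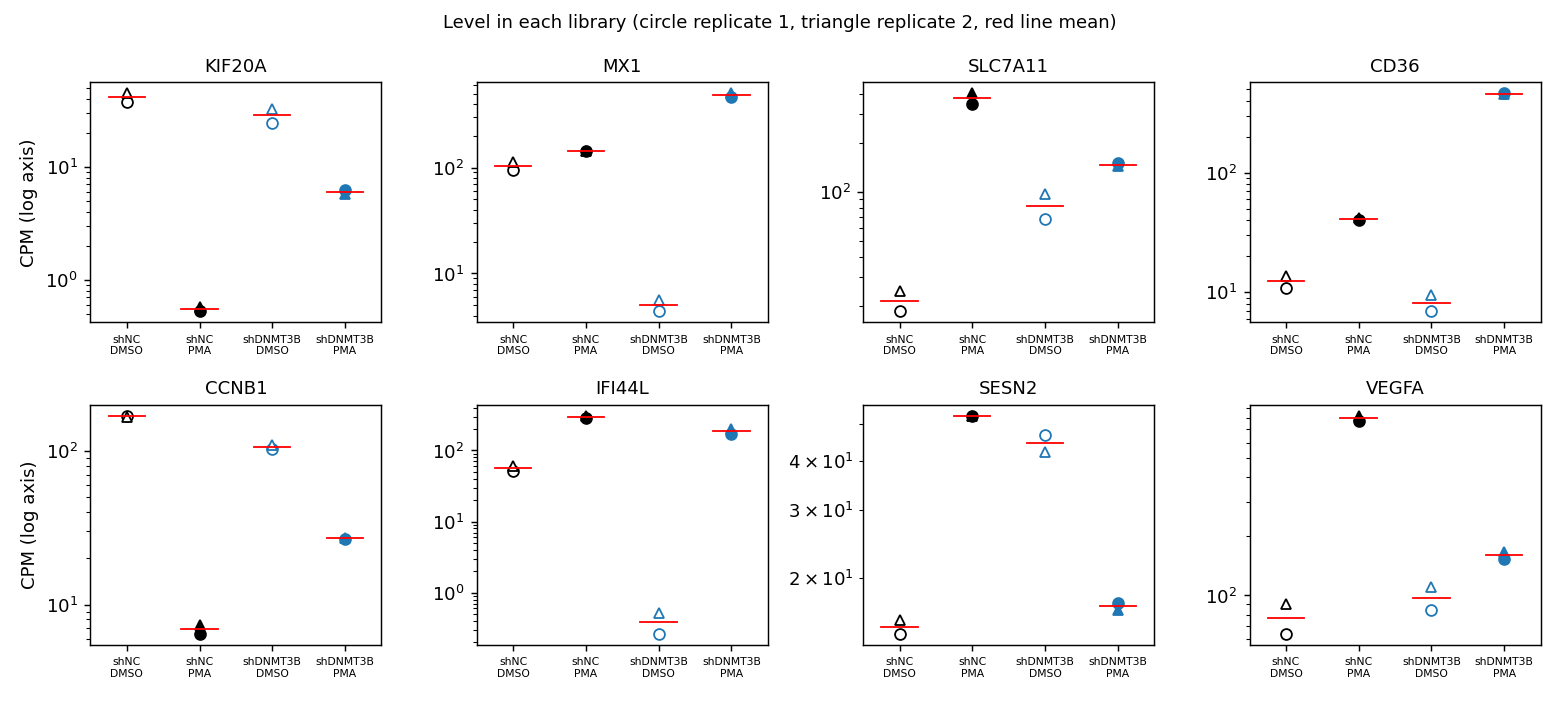
Level of 8 genes in each of the 8 libraries, in CPM on log axes that differ between panels. Circles are replicate 1, triangles replicate 2, open symbols DMSO, filled symbols PMA, and the red line is the mean. KIF20A and CCNB1 stay higher with PMA in shDNMT3B, MX1 and IFI44L start far lower with DMSO, and SESN2 changes in opposite directions.

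Type I interferon response genes rose more under PMA in the libraries labelled shDNMT3B, from a lower level with DMSO to a level near that of shNC with PMA. Of 62 tested genes, 46 were higher (74.2%) and 0 lower, with a median difference of 2.07, and the difference was positive in 61 of the 62. The median member rose by 1.85 (log2) under PMA in shNC and by 3.91 in shDNMT3B. With DMSO 55 members were lower in shDNMT3B (median -2.40) and 0 higher. With PMA 23 were lower and 2 higher (median -0.40), and with the block 37 and 4. Without the first shNC DMSO library, the one with HBB counts, 40 members were called higher.

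IFI44, an interferon-induced gene of unsettled function, was at 76.9 and 53.6 CPM in shNC with DMSO and at 1.11 and 1.22 CPM in shDNMT3B with DMSO. With PMA it was at 232 and 210 CPM and at 260 and 222 CPM, where the lines overlap. The difference of the responses was 5.92 ± 0.30 (SE, edgeR adjusted p = 1.3e-06). OAS3, a sensor that makes the activator of RNase L, was at 285 and 298 CPM with DMSO and 1110 and 1080 CPM with PMA in shNC, and at 15.9 and 16.3 CPM and 748 and 795 CPM in shDNMT3B (3.67 ± 0.23). IFIT1, which binds foreign RNA ends, went from 61.7 and 53.9 CPM to 795 and 702 CPM in shNC and from 2.17 and 1.48 CPM to 550 and 485 CPM in shDNMT3B (4.45 ± 0.34).

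MX1, an antiviral GTPase, went past the control. It was at 95.1 and 114 CPM with DMSO and 142 and 142 CPM with PMA in shNC, where the change of 0.44 was not called (edgeR adjusted p = 0.123, or 0.00764 with the replicate block). In shDNMT3B it was at 4.39 and 5.6 CPM with DMSO and 467 and 503 CPM with PMA. The PMA level was thus higher than in shNC (log2 1.78, edgeR adjusted p = 2.7e-04), and the difference of the responses was 6.16 ± 0.36 (edgeR adjusted p = 3.5e-06). IFI44L gave 6.47 ± 0.54, with 0.264 and 0.509 CPM in shDNMT3B with DMSO and 171 and 198 CPM with PMA, against 51.8 and 61.2 CPM and 287 and 309 CPM in shNC. Of the transducers, IRF9 (1.14 ± 0.17, edgeR adjusted p = 0.00162) was called and STAT2 (0.81 ± 0.39, edgeR adjusted p = 0.283, or 0.0062 with the replicate block) was not. RSAD2 (0.65, with an edgeR adjusted p of 0.0264 under the block), TRIM25 (0.20) and ADAR (0.44) were also not called.

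The interferon-stimulated response element (ISRE), sought as GAAA, any 2 bases and GAAA again, on either strand of the 250 bases before the start, stood in 26 of 49 promoters of the list (53.1%) and in 289 of 11736 (2.46%). They share GAA with the letters of the CHR and may overlap it. Among the called members the ISRE letters stood in 20 of 35 promoters (57.1%), near the share of the whole list. The 3 called members with the smallest adjusted p among those with a match in the last 150 bases are shown as examples, in the same form as above.
IFI44 (chr1:78649639-78649788, plus strand): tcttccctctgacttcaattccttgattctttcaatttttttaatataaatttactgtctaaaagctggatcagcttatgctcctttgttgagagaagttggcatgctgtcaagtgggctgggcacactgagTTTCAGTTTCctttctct
OAS3 (chr12:112938324-112938473, plus strand): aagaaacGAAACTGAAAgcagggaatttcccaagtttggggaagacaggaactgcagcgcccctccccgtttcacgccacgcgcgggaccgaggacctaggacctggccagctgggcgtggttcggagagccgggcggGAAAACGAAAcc
HERC5 (chr4:88456969-88457118, plus strand): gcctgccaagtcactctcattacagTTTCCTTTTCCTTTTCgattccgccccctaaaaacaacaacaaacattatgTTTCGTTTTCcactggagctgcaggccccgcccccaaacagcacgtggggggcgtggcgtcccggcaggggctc
OAS3 holds the letters at 2 places and HERC5 at 3, of which 2 overlap.

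Genes of the interferon-gamma response and antigen presentation followed in part. Of 48 tested, 13 were higher (27.1%) and 1 lower, with a median of 0.86, and with the replicate block 28 were higher. Without shNC PMA replicate 2 or shDNMT3B PMA replicate 1 the higher count was 6, without shDNMT3B DMSO replicate 2 it was 7, and without shNC DMSO replicate 2 or shNC PMA replicate 1 it was 8. GBP4, a guanylate-binding protein, was at 15.6 and 15.9 CPM and 40.5 and 37.2 CPM in shNC and at 6.5 and 5.34 CPM and 54.9 and 54.2 CPM in shDNMT3B, in the order DMSO, PMA (1.90 ± 0.22). CIITA, the master regulator of class II genes, fell from 3.31 and 5.69 CPM to 0.368 and 0.217 CPM in shNC and stood at 1.16 and 1.37 CPM against 0.685 and 1.06 CPM in shDNMT3B (3.32 ± 0.59, edgeR adjusted p = 0.00412). HLA-F was at 17.4 and 19.5 CPM in shDNMT3B with PMA and under 1 CPM elsewhere (3.32 ± 0.64). HLA genes share sequence, and the counting may split their reads. WARS1, a tRNA synthetase that is also an interferon-gamma target, was the lower member (-1.19 ± 0.24).

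Genes of the amino acid and ATF4 response fell further or rose less under PMA in the libraries labelled shDNMT3B. Of 55 tested, 37 were lower (67.3%, against 1.70% of all genes) and 1 higher, with a median of -1.33. With the replicate block 47 were lower and 3 higher. The median member changed by 0.06 in shNC and by -1.17 in shDNMT3B. With DMSO 11 members were higher in shDNMT3B and 0 lower (median 0.48), or 33 and 2 with the block, and with PMA 35 were lower and 2 higher (median -0.86).

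SESN2, a stress sensor that restrains mTORC1, was at 14.4 and 15.6 CPM in shNC with DMSO and 52.4 and 52.3 CPM with PMA. In shDNMT3B it was at 46.8 and 42.3 CPM with DMSO and 17.3 and 16.6 CPM with PMA. It rose in one line and fell in the other, with a difference of the responses of -3.20 ± 0.20 (SE, edgeR adjusted p = 4.4e-06). DDIT4, another mTORC1 inhibitor, did the same (21 and 22.2 CPM to 57.7 and 57.8 CPM in shNC, 52.9 and 58.2 CPM to 26.8 and 26.1 CPM in shDNMT3B, -2.49 ± 0.22). CHAC1, which degrades glutathione, was at 21.7 and 17.4 CPM and 16.3 and 15.4 CPM in shNC, a change that was not called. In shDNMT3B it fell from 46.6 and 36.8 CPM to 3.37 and 4.33 CPM (-3.14 ± 0.28, edgeR adjusted p = 3.6e-05). SLC7A11, the cystine importer, rose in both lines, from 18.5 and 24.6 CPM to 346 and 403 CPM in shNC and from 68 and 96.5 CPM to 150 and 144 CPM in shDNMT3B (-3.28 ± 0.33).

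The transcript of ATF4 itself rose in shNC, from 682 and 524 CPM to 928 and 984 CPM, and fell in shDNMT3B, from 945 and 701 CPM to 400 and 409 CPM (-1.69 ± 0.27, edgeR adjusted p = 0.00226). PSAT1, an enzyme of serine synthesis, gave -2.38 ± 0.26, PCK2, the mitochondrial phosphoenolpyruvate carboxykinase, gave -2.35 ± 0.31, and the transporter SLC7A5 gave -1.81 ± 0.26. Of the tRNA synthetases, MARS1 (-1.61 ± 0.23) and CARS1 (-1.67 ± 0.25) were called, and LARS1 (-0.41) and NARS1 (-0.73) were not, although NARS1 was with the block (edgeR adjusted p = 0.00274). VEGFA, which the list holds as an ATF4 target and which hypoxia also induces, rose from 63.9 and 90.2 CPM to 773 and 822 CPM in shNC and from 84.1 and 111 CPM to 153 and 167 CPM in shDNMT3B (-2.66 ± 0.28, edgeR adjusted p = 1.4e-04). ALDH18A1, an enzyme of proline synthesis, was the higher member (0.97 ± 0.20, edgeR adjusted p = 0.0103), and CLGN (0.73) was not called. SHMT1 (0.73) was called with the block alone (edgeR adjusted p = 0.00488).

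The letters TGATGNAA, a form of the composite site that ATF4 binds with C/EBP factors, stood on either strand of the 250 bases in 5 of 44 promoters of the list (11.4%) and in 181 of 11736 (1.54%). Among the called members the letters stood in 4 of 33 promoters (12.1%), near the share of the whole list. The called members with a match in the last 150 bases were ASNS, asparagine synthetase, and IARS1. ASNS fell from 130 and 125 CPM to 21.1 and 19.1 CPM in shDNMT3B and was at 83.2 and 68.7 CPM and 74.6 and 56.1 CPM in shNC (-2.45 ± 0.42).
ASNS (chr7:97872409-97872558, minus strand): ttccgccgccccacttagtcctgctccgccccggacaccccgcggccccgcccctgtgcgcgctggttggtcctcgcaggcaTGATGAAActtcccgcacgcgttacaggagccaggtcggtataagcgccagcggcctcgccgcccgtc
IARS1 (chr9:92293698-92293847, minus strand): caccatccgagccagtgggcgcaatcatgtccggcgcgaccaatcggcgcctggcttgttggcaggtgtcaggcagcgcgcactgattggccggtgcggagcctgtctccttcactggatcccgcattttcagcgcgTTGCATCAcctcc

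**Figure D3:**
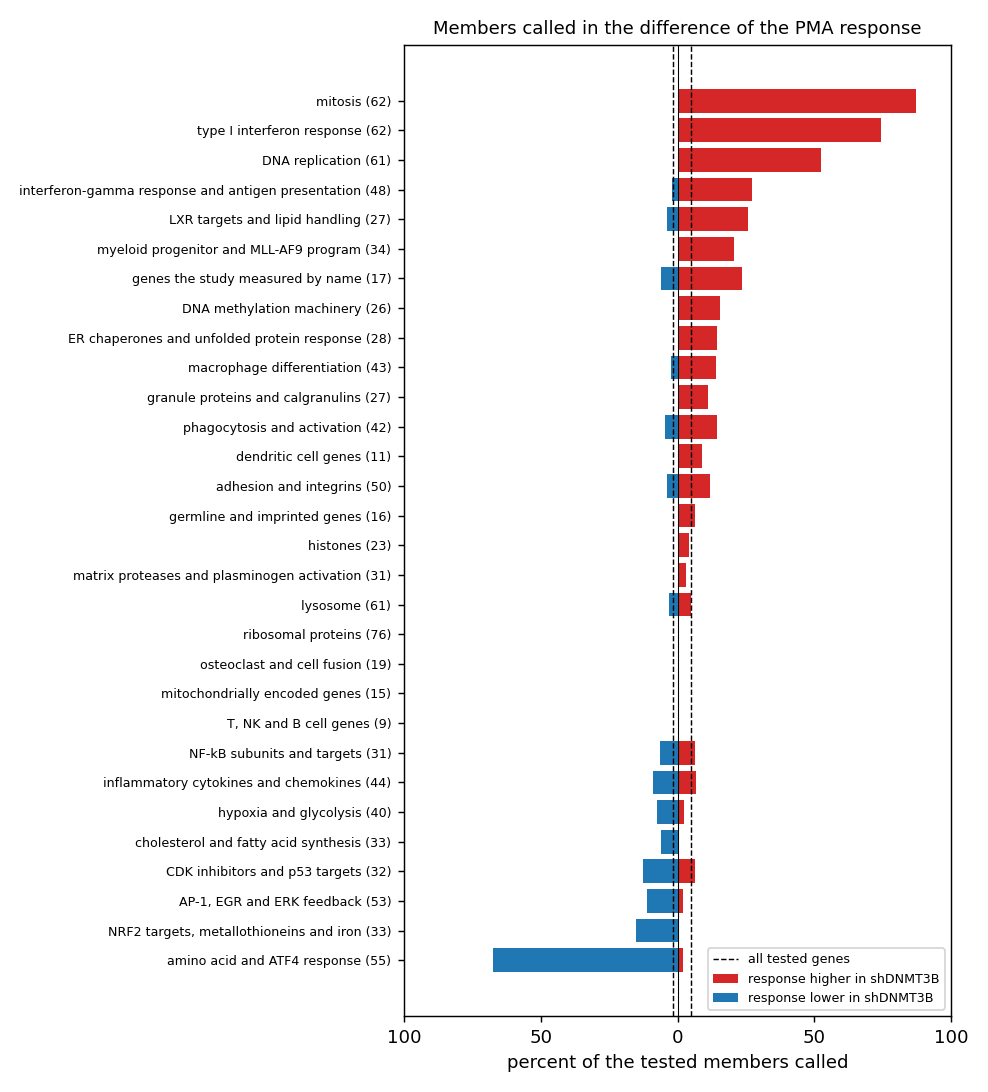
Share of the tested members of each gene list that were called in the difference of the PMA response, higher to the right and lower to the left, for lists with at least 5 tested genes (number in parentheses). The dashed lines mark the shares over all tested genes, 5.08% and 1.70%. Mitosis (87.1%), type I interferon (74.2%) and DNA replication (52.5%) lead on the higher side, and the ATF4 response (67.3%) on the lower.

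A minority of macrophage genes differed in their response. Of 43 tested genes of macrophage differentiation, 6 were higher (14%) and 1 lower, with a median of 0.47, and with the replicate block 13 were higher and 5 lower. The median member rose by 3.30 in shNC and by 4.26 in shDNMT3B. CD36, a scavenger and fatty acid receptor, was at 10.9 and 13.7 CPM and 40 and 41.5 CPM in shNC. In shDNMT3B it was at 6.92 and 9.47 CPM and 463 and 455 CPM, so with DMSO both values lie below those of shNC and with PMA both lie far above (4.08 ± 0.30, edgeR adjusted p = 1.1e-05). MARCO, a scavenger receptor of bacteria, fell from 3.21 and 2.6 CPM to 1.1 and 0.577 CPM in shNC and rose from 2.64 and 2.24 CPM to 11.8 and 10.1 CPM in shDNMT3B (3.91 ± 0.60, edgeR adjusted p = 0.00161). SIGLEC1, a sialic acid receptor that interferon also induces, gave 3.69 ± 0.36, and CD4 gave 1.27 ± 0.25. GPNMB, a glycoprotein of lipid-laden macrophages, rose in both lines (1.87 ± 0.42), and LPL, lipoprotein lipase, rose less in shDNMT3B (-1.39 ± 0.24). CD14 (0.22, edgeR adjusted p = 0.91) and ITGAM (0.47, edgeR adjusted p = 0.507), common markers of this differentiation, were not called. Of 42 genes of phagocytosis and activation, 6 were higher (14.3%) and 2 lower, with a median of 0.36 (9 and 7 with the block), among them the receptor kinase AXL (2.69 ± 0.35) and the complement receptor VSIG4 (-2.06 ± 0.40). Among 50 adhesion genes 6 were higher (12%) and 2 lower (median 0.01, and 11 and 3 with the block), with PECAM1 at 2.06 ± 0.28.

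Among the 27 genes of lipid handling, 7 were higher (25.9%) and 1 lower, with a median of 0.47 (10 and 3 with the block). PLIN2, which coats lipid droplets, rose from 50.1 and 51 CPM to 539 and 471 CPM in shNC and from 156 and 158 CPM to 4630 and 4520 CPM in shDNMT3B (1.55 ± 0.25, edgeR adjusted p = 0.00208). FABP5, a fatty acid carrier, rose to 1030 and 783 CPM with PMA in shDNMT3B and to 234 and 198 CPM in shNC (2.41 ± 0.36). PDK4, which blocks pyruvate oxidation, had no counts in shNC with PMA and 12.6 and 9.71 CPM in shDNMT3B with PMA, and its DMSO levels were 0.368 and 0.797 CPM against 4.23 and 4.07 CPM. With 3 counts over the empty group taken as a floor, its difference was 4.12 on the log2 scale. CD36, FABP5 and LPL also belong to the list of macrophage differentiation.

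Cytokine genes did not move together. Of 44 tested, 3 were higher (6.82%) and 4 lower (9.09%), with a median of -0.02. With the replicate block 10 were higher and 7 lower. CXCL10, an interferon-induced chemokine, was at 40.9 and 28.1 CPM and 127 and 91 CPM in shNC and at 4.92 and 3.41 CPM and 224 and 154 CPM in shDNMT3B (3.84 ± 0.41, edgeR adjusted p = 1.5e-04). CXCL2, a neutrophil chemokine, rose from 0.368 and 0.585 CPM to 87.6 and 90.4 CPM in shNC and from 0.317 and 0.611 CPM to 20.8 and 19.7 CPM in shDNMT3B (-2.10 ± 0.41). CXCL11, another interferon-induced chemokine, gave 5.97 ± 0.63, and TNFSF13B gave 1.82 ± 0.46. HBEGF, an EGF receptor ligand, rose less too (-2.29 ± 0.23), as did PTGS2, the inducible cyclooxygenase (-2.36 ± 0.47), and VEGFA. TNF (-0.67, edgeR adjusted p = 0.589) and IL1B (-0.94, edgeR adjusted p = 0.196) were not called. Among 31 NF-kB genes PLAU (1.39) and IKBKE (0.88) were higher and IER3 (-2.79) and TNFAIP2 (-0.89) lower (6.45% each way, median -0.41). With the block 3 were higher and 11 lower.

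Immediate early and ERK feedback genes, which PMA induces, gave 6 lower (11.3%) and 1 higher of 53 (median -0.18), and 13 lower and 6 higher with the block. Without shNC DMSO replicate 1, shNC DMSO replicate 2 or shDNMT3B DMSO replicate 1 the lower count was 3. EGR1 rose from 6.68 and 8.19 CPM to 200 and 201 CPM in shNC and from 7.88 and 11.7 CPM to 104 and 105 CPM in shDNMT3B (-1.34 ± 0.25, edgeR adjusted p = 0.00608). DUSP10, a MAP kinase phosphatase, gave -1.23 ± 0.20, and EGR3 gave -2.67 ± 0.57. PRKCQ, a protein kinase C, was the higher member (1.33 ± 0.33).

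Progenitor and MLL-AF9 program genes gave 7 higher (20.6%) and 0 lower of 34, with a median of 0.50 (15 higher and 2 lower with the block). FLT3, a receptor kinase of progenitors, was at 17.2 and 19.6 CPM and 3.42 and 2.45 CPM in shNC. In shDNMT3B it was at 18.3 and 20.2 CPM and 20.2 and 20.3 CPM, where its change of 0.07 was not called (edgeR adjusted p = 0.8). The difference of the responses was 2.70 ± 0.30 (SE, edgeR adjusted p = 1.7e-04). MYB, a progenitor transcription factor, fell from 265 and 337 CPM to 5.78 and 9.31 CPM in shNC and from 276 and 287 CPM to 28.5 and 32 CPM in shDNMT3B (2.11 ± 0.33). HOXA10, a target of the fusion, gave 1.38 ± 0.23.

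Chaperones of the endoplasmic reticulum gave 4 higher (14.3%) and 0 lower of 28, with a median of 0.39, and 11 higher and 1 lower with the block. The higher count was 1 without shNC DMSO replicate 1, shDNMT3B DMSO replicate 2, shNC PMA replicate 2 or shDNMT3B PMA replicate 1. PDIA4, a disulfide isomerase, fell from 133 and 166 CPM to 73.2 and 62.2 CPM in shNC and rose from 100 and 104 CPM to 271 and 240 CPM in shDNMT3B (2.47 ± 0.28, edgeR adjusted p = 2.0e-04). MANF, a folding factor, behaved likewise (2.85 ± 0.65, edgeR adjusted p = 0.0176). CRELD2 (1.48 ± 0.37) and HSP90B1 (1.15 ± 0.32) were the others.

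Other lists held few calls or none. Ribosomal protein genes (76, median 0.25), mitochondrially encoded genes (15, median 0.45), osteoclast and cell fusion genes (19, median -0.65, 4 lower with the block) and T, NK and B cell genes (9, median 1.07) had 0 called, while the block gave 1 mitochondrially encoded and 2 T, NK and B cell genes higher. So had the genes of megakaryocytes (4) and of epithelium and fibroblasts (3). Genes of lysosomes gave 3 higher (GGH, CTSC and SCARB2, 4.92% against 5.08% of all genes) and 2 lower (TFE3 and MCOLN1, 3.28% against 1.70%) of 61 (median 0.11), and 6 and 6 with the block. Granule genes gave 3 higher of 27 (11.1%, and 6 higher and 2 lower with the block), namely VCAN (2.39), CXCR2 (3.59) and MS4A3 (4.65). Hypoxia and glycolysis genes gave ALDOC higher (1.69, 2.5% of 40) and VEGFA, HK2 (-1.81) and BHLHE40 (-0.88) lower (7.5%). With the block 7 were higher and 4 lower, and over all genes the block also called more higher (12.6%) than lower (6.97%). Cholesterol and fatty acid synthesis genes gave 0 higher and 2 lower (6.06%) of 33, with SREBF2 at -1.03 (2 and 4 with the block). Single members were higher among matrix proteases (PLAU, of 31), histones (H2AZ1 at 2.01, of 23), germline and imprinted genes (MEST at 1.67, of 16) and dendritic cell genes (FLT3, of 11). With the block these lists gave 2, 5, 2 and 3 higher in the same order, and 2 histones and 1 dendritic cell gene lower.

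NRF2, metallothionein and iron genes gave 5 lower (15.2%, against 1.70% of all genes) and 0 higher of 33 (median -0.01). The 5 were SLC7A11, OSGIN1 (-2.21), ME1 (-0.97), TXNRD1 (-0.79) and SRXN1 (-0.78). With the block 9 were higher and 10 lower, and the lower count was 2 or 3 without any 1 library. CDK inhibitor and p53 target genes gave 2 higher (6.25%, against 5.08% of all genes) and 4 lower (12.5%, against 1.70%) of 32. CDKN2C (1.81) and DDB2 (1.32) were higher, and SESN2, GDF15 (-3.08), CCND1 and SESN1 (-1.10) lower, with CDKN1A not called (-0.43 ± 0.37). With the block 7 were higher and 8 lower. A further list held 17 tested genes that the study named in its own assays of THP-1 cells, so it is not an independent choice. Of its members, OAS2, UHRF1, PDK4 and DNMT3B were higher (23.5%) and PSAT1 lower (5.88%), and with the block 6 were higher and 1 lower. CCND1, a cyclin of early G1 that PMA induces here, rose less in shDNMT3B (243 and 245 CPM with PMA against 536 and 452 CPM in shNC, -2.06 ± 0.24).

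Several of the largest differences were in genes with an empty group. For these a value with 3 counts over the empty group is given. The other groups, some of them near that floor, enter as counted, so the value is not a strict bound. CXCR3, a chemokine receptor, was at 2.1 and 1.38 CPM in shNC with DMSO, had no counts with PMA, and stood at 0.106 and 0.153 CPM and 0.457 and 0.213 CPM in shDNMT3B. Its response was 5.68 (log2) higher in shDNMT3B with 3 counts over the empty group. TLR8, a sensor of single-stranded RNA, had no counts in shDNMT3B with DMSO, 1.26 and 1.99 CPM there with PMA, and 0.21 to 0.372 CPM in shNC (5.04 with the floor). MAP2K6, a kinase of p38, was at 9.68 and 8.98 CPM in shNC with DMSO and without counts with PMA. In shDNMT3B it was at 8.14 and 6.46 CPM and 0.914 and 0.425 CPM (3.29 with the floor). On the lower side, WNT5A, a secreted signal, rose from 0.105 and 0.0532 CPM to 3.89 and 6.06 CPM in shNC and stood at 0.952 and 0.967 CPM and 0.971 and 1.42 CPM in shDNMT3B (-5.54 ± 0.75, edgeR adjusted p = 0.00137). Of the 1118 genes, 23 had such an empty group.

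The responses of the other knockdown lines were set beside this one. The PMA response of shDNMT3B differed from that of shUHRF1 in 724 genes (4.39%), 443 higher (2.68%) and 281 lower (1.70%), and from that of shDNMT1 in 198 genes (1.20%), 35 higher (0.212%) and 163 lower (0.988%). With the replicate block these counts were 2500 (8.39% higher, 6.76% lower) and 1607 (4.48% higher, 5.25% lower). Without shUHRF1 DMSO replicate 2 the first count was 585, and without any 1 of the other 7 libraries it was 366 to 454. The second count was 67 to 111 without any 1 of its 8 libraries. All these comparisons share the shDNMT3B libraries, so their values are set side by side and not counted as separate evidence. Against shNC, the response of shDNMT1 differed in 1107 genes (6.71%) and that of shUHRF1 in 140 (0.848%), or 3074 and 1400 with the block.

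Mitosis genes differed from their response in shUHRF1, with 50 of 62 higher and 0 lower (median 2.02), while against shDNMT1 0 were called (median 0.31). With the block 10 of the 62 were higher than in shDNMT1. Set against shNC, 49 of the 62 were higher in shDNMT1 too and 0 lower (median 2.15, with 5.64% of all genes higher). In shUHRF1 0 were called against shNC, or 8 higher and 1 lower with the block. CDC20 had mean levels of 7.05 CPM in shNC, 12.6 CPM in shUHRF1, 45.2 CPM in shDNMT1 and 63.4 CPM in shDNMT3B with PMA, from 420 to 440 CPM with DMSO. Its response in shDNMT3B was 2.26 above that of shUHRF1 (edgeR adjusted p = 2.1e-04) and 0.47 above that of shDNMT1 (edgeR adjusted p = 0.432). DNA replication genes gave 36 of 61 higher than in shUHRF1 and 0 called against shDNMT1 (21 with the block). In shDNMT1 against shNC, 20 of the 61 were higher and 0 lower, or 31 and 1 with the block. Of the interferon list, 18 of 62 rose more than in shUHRF1 (32 with the block), and 6 rose less than in shDNMT1 (30 with the block), among them ISG20 (-2.69, edgeR adjusted p = 0.00237) and RSAD2 (-2.15, edgeR adjusted p = 0.002). The higher response than in shNC was not particular to shDNMT3B. Against shNC, 29 of the 62 were higher in shUHRF1 and 51 in shDNMT1, with 0 lower (0.739% and 5.64% of all genes were higher). With the block 54 and 58 were higher. Of the 48 interferon-gamma genes, 23 were also higher in shDNMT1 than in shNC (35 with the block). For the 34 progenitor genes that count was 10 (17 with the block).

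The ATF4 response differed from both other knockdown lines. Of its 55 genes, 32 were lower than in shUHRF1 (median -1.26) and 21 lower than in shDNMT1 (median -1.08), with 0 higher in either. With the block 44 were lower and 2 higher than in shUHRF1, and 39 lower and 0 higher than in shDNMT1. The median member of the list stood at 6.90 and 6.91 log2 CPM in shDNMT3B with DMSO, above the 6.48 and 6.55 of shNC, the 5.57 and 5.82 of shUHRF1 and the 5.44 and 5.42 of shDNMT1. With PMA it stood at 5.70 and 5.67 in shDNMT3B, 6.83 and 6.62 in shNC, 5.62 and 5.63 in shUHRF1 and 5.59 and 5.34 in shDNMT1. SESN2 had mean DMSO levels of 15 CPM in shNC, 6.14 CPM in shUHRF1, 6.3 CPM in shDNMT1 and 44.6 CPM in shDNMT3B. It reached 52.3, 20.3, 13.7 and 17 CPM with PMA in the same order, and its response in shDNMT3B was below that of shUHRF1 (-3.12, edgeR adjusted p = 1.2e-05) and that of shDNMT1 (-2.52, edgeR adjusted p = 1.7e-04). MARCO was higher against both lines, with a mean of 11 CPM with PMA in shDNMT3B against 0.583 CPM in shUHRF1 and 1.19 CPM in shDNMT1 (2.67, edgeR adjusted p = 0.0357, and 3.23, edgeR adjusted p = 0.0195). CD36 differed from shUHRF1 (2.64, edgeR adjusted p = 3.6e-04) and not by the test from shDNMT1 (0.32, edgeR adjusted p = 0.761).

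**Figure D4:**
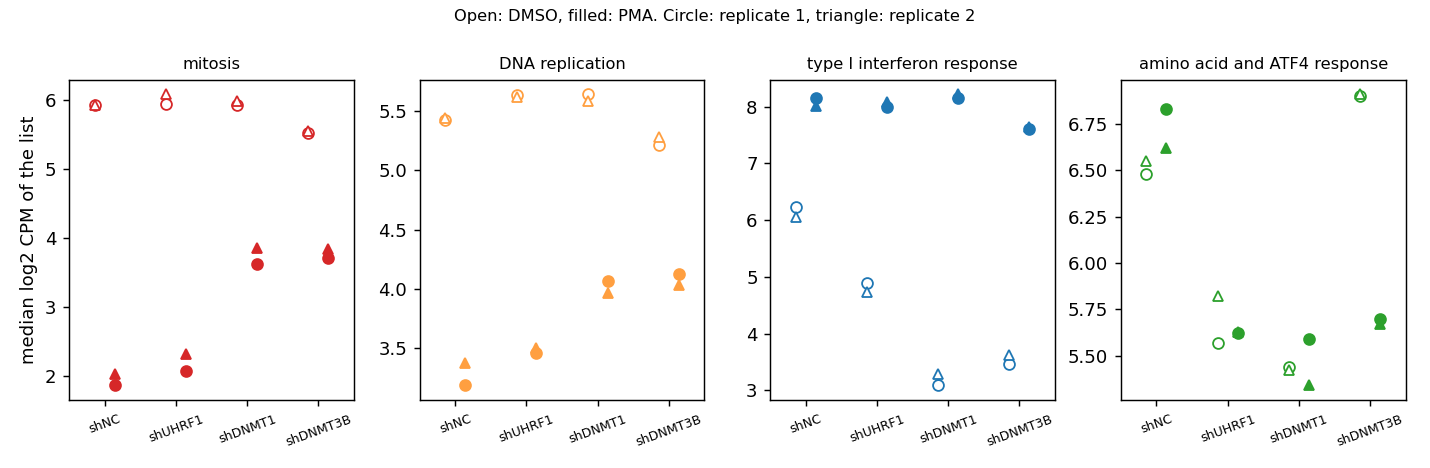
Median log2 CPM of 4 gene lists in all 16 libraries, by line. Open symbols are DMSO, filled symbols PMA, circles replicate 1 and triangles replicate 2. Mitosis and replication genes stay higher with PMA in shDNMT1 and shDNMT3B than in shNC and shUHRF1, interferon genes start lower with DMSO in the knockdown lines, and ATF4 response genes fall under PMA in shDNMT3B.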

How the data were processed

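The authors deposited 1 table of raw counts per gene for 16 libraries, made from poly(A) RNA (TruSeq Stranded mRNA, paired-end). The submitters' processing notes name STAR 2.4.0b, HTSeq 0.6.1p1, Cufflinks 2.1.1 and edgeR, with build hg38. The annotation release and the strand setting of the counting are not given in the sources used here, so reads of antisense and overlapping genes may not be told apart. From these counts, genes passing filterByExpr (minimum count 10, total 15) were tested by edgeR 4.0.16 (R 4.3.3) with TMM factors and a robust quasi-likelihood test in a fit of all 8 groups (8 residual degrees of freedom). Genes with a Benjamini-Hochberg adjusted p under 0.05 over 16503 genes were called. CPM used library sizes multiplied by the TMM factors, not the plain library totals, and fold changes are log2. Errors written after ± are standard errors of the fit and hold the spread between libraries. The floor of 3 counts for an empty group covers counting error in that group only. Counts of replicates differed by far more than sampling noise (chi-square per gene at least 48.4). Nothing says that replicates came from separate cultures, so p-values measure the spread between these libraries. Replicates with the same number deviated together in all 28 pairs of groups (correlation 0.22 to 0.508, against 0.1). The main fit nonetheless holds no term for this pairing, so its counts, errors and adjusted p are unpaired. The fit with the replicate block holds that term. This block fit is given beside list counts it moves by over 1.5 times and beside named genes whose call in the difference of the responses it changes. Members and lists were chosen with earlier results of these data known. Genes named are the largest 15 in each direction, the best-ranked called genes per list by adjusted p (at most 4) and the genes the study measured, in part, and others were chosen after their values were seen. The method was tested on simulated counts without a shared replicate effect, so that test does not cover the pairing seen here. Promoter bases are from RefSeq (GRCh38). Results for some genes are not reported here.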

Additional observations from a re-analysis of the deposited data

Results flagged for a closer look

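The PMA response of shDNMT3B differed by an interaction test from that of shNC in 1118 genes, from that of shUHRF1 in 724 and from that of shDNMT1 in 198. In 55 genes the calls under PMA had opposite directions in shNC and shDNMT3B, 38 falling in shNC and rising in shDNMT3B and 17 the reverse. The 10 with the largest difference among those reaching a mean of 20 CPM in a group are given here, and were chosen after their values were seen. CD300A, an inhibitory receptor of myeloid cells, went from 12.1 and 6.7 CPM to 3.63 and 3.1 CPM in shNC and from 11.6 and 6.97 CPM to 66.5 and 46.8 CPM in shDNMT3B (4.09). MANF (2.85), PDIA4 (2.47), DCANP1 (2.45) and SUSD3 (1.90) moved in the same direction. CCNA1, the cyclin of germ cells, fell from 39 and 43.5 CPM to 11.7 and 12.7 CPM in shNC and rose from 8.14 and 11.2 CPM to 15.9 and 20.2 CPM in shDNMT3B (2.65). TMSB4X, an actin-binding peptide, stood at 2500 and 1660 CPM and 1080 and 902 CPM in shNC and at 2030 and 1320 CPM and 4040 and 2980 CPM in shDNMT3B (2.14). SESN2 (-3.20), DDIT4 (-2.49) and NUPR1 (-2.45), all in the ATF4 list, rose in shNC and fell in shDNMT3B.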

How the results depend on the processing

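The count of 1118 genes (838 higher, 280 lower) was within 1.5 times under other size factors, without mitochondrially encoded genes, without the count filter, in a fit of only the libraries compared (844) and with DESeq2 (1493), although DESeq2 called 482 lower. With the replicate block it was 3224 (2074 and 1150), in a block fit of only the libraries compared 3765 (2316 and 1449), and at an unadjusted p 3257 (2128 and 1129). The block with RLE factors gave 3214 (1990 and 1224) and with upper-quartile factors 3268 (2256 and 1012), both chosen after seeing the data. The share of higher genes was 75% and 64.3% with the block. Leaving out 1 library gave 660 to 865 genes, 518 to 659 higher and 139 to 206 lower. Against shUHRF1 (724) the count was 2500 with the block, 359 with only the libraries compared and 1963 with their block, 2758 unadjusted, 1109 with DESeq2, 2489 and 2549 with the block under RLE and upper-quartile factors, and 366 to 585 without 1 library. Against shDNMT1 (198) it was 1607, 71, 1616, 1932, 513, 1570 and 1661 in the same order, 503 without the filter, and 67 to 111 without 1 library. The higher share against shDNMT1 went from 17.7% to 46% with the block. Of 2141 values of 113 named genes over 19 settings, 1943 kept their side of the threshold, 186 no longer passed and 12 newly passed. Where the gene was called in either fit, 0 turned direction. A change of sign in a gene called in neither fit was counted as kept. With 2 libraries a group the spread is estimated from few libraries, and the cause of the settings' effects was not tested.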
